A study of Mus musculus with 15 samples.

Results

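The genes described here are the fatty acid desaturases and elongases of mouse liver, chosen as the probe sets whose only gene symbol is Scd1, Scd2, Scd3, Fads1, Fads2, Elovl1, Elovl2, Elovl5 or Elovl6. All 9 genes were measured, by 18 of the 20380 probe sets with 1 gene symbol, and the probe sets of a gene were averaged, which gave 9 of 12393 genes. The study hybridized RNA of 15 mouse liver samples on Affymetrix arrays, and its wider aim was to follow gene expression as fatty liver disease progresses to hepatocellular carcinoma (HCC). The first group is 5 tumors of MAT1A KO mice, which the submitters call HCC by histopathology. The second is 5 samples of peritumoral liver, also of MAT1A KO mice labelled with HCC, and the third is 5 samples of healthy wild type liver. All animals were of strain C57B6SJL and 15 months old. MAT1A KO mice lack the enzyme that makes S-adenosylmethionine (SAMe) in adult liver, so in each comparison with wild type liver the genotype and the disease cannot be told apart. The 2 comparisons with wild type liver share the same wild type arrays.

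Long fatty acids are built in the endoplasmic reticulum by a cycle in which an ELOVL enzyme adds a unit of malonyl-CoA and partner enzymes complete the step. Desaturases then place double bonds into the chain: the stearoyl-CoA desaturases (SCD) make the monounsaturated acids of triglycerides and membranes, and the front-end desaturases FADS1 and FADS2 act with ELOVL5 and ELOVL2 to turn dietary linoleic and alpha-linolenic acid into arachidonic and docosahexaenoic acid. In liver many of these genes are known targets of the sterol regulatory element binding protein SREBP-1c, and they respond to feeding, insulin and dietary polyunsaturated fat.

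The deposited values are log2 signals from robust multi-array averaging (RMA). A difference of 1 between groups on this scale is a doubling, and signals of different probe sets cannot be set against each other. Medians of the 15 arrays lay between 5.47 and 5.68, and their lowest values between 2.61 and 2.78. Precision is set by the 5 arrays of each group. Mat1a itself read 8.33 to 10.50 in tumors and 8.84 to 11.44 in peritumoral liver, against 12.25 to 12.72 in wild type liver, so the groups did not overlap and the KO arrays still gave signal (which part of the gene its probes cover was not examined). Of 5 measured hepatocyte genes, Alb was between 14.46 and 14.70 in all 15 arrays. Apoa1 lay between 14.18 and 14.58 and Ttr between 13.32 and 14.15. The other hepatocyte genes varied more. Cps1 read 10.69 to 13.45 in tumors and 12.92 to 13.45 in peritumoral liver, against 13.01 to 13.32 in wild type liver. Tat read 10.70 to 13.66 in tumors and 11.73 to 14.08 in peritumoral liver, against 11.91 to 13.13 in wild type liver. Tumor 2, peritumoral 2 and wild type 4 had the lowest mean correlation with the other arrays of their groups, 0.936, 0.944 and 0.968, and tumor 5 came next to tumor 2 with 0.938. Results that rest on these arrays are given with and without them.

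Only Elovl2 among the 9 genes passed the test between tumors and wild type liver, with a fall, at an adjusted p under 0.05 in limma. The share of all 12393 genes that passed was 0.565%, and the share that passed with a fall was 0.226%. Scd2 had the largest ratio, 4.78-fold higher in tumors, with an adjusted p of 0.111, and Fads1 was 1.94-fold lower with an adjusted p of 0.218. In peritumoral liver against wild type liver none of the 9 passed, while 0.0403% of all genes did. At an unadjusted p under 0.05, 4 of the 9 were found in tumors against wild type liver (17.4% of all genes) and 2 in peritumoral liver against wild type liver (15.1% of all genes). Two-sided exact permutation tests over the arrays, unadjusted, gave 4 and 2 genes under 0.05 in the same comparisons. They were run on the 9 genes only, so these counts have no share over all genes to be set against. The median log2 ratio of the 9 genes was -0.26 in tumors and -0.30 in peritumoral liver, each against wild type liver, beside medians over all genes of -0.05 and -0.06.

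**Figure D1:**
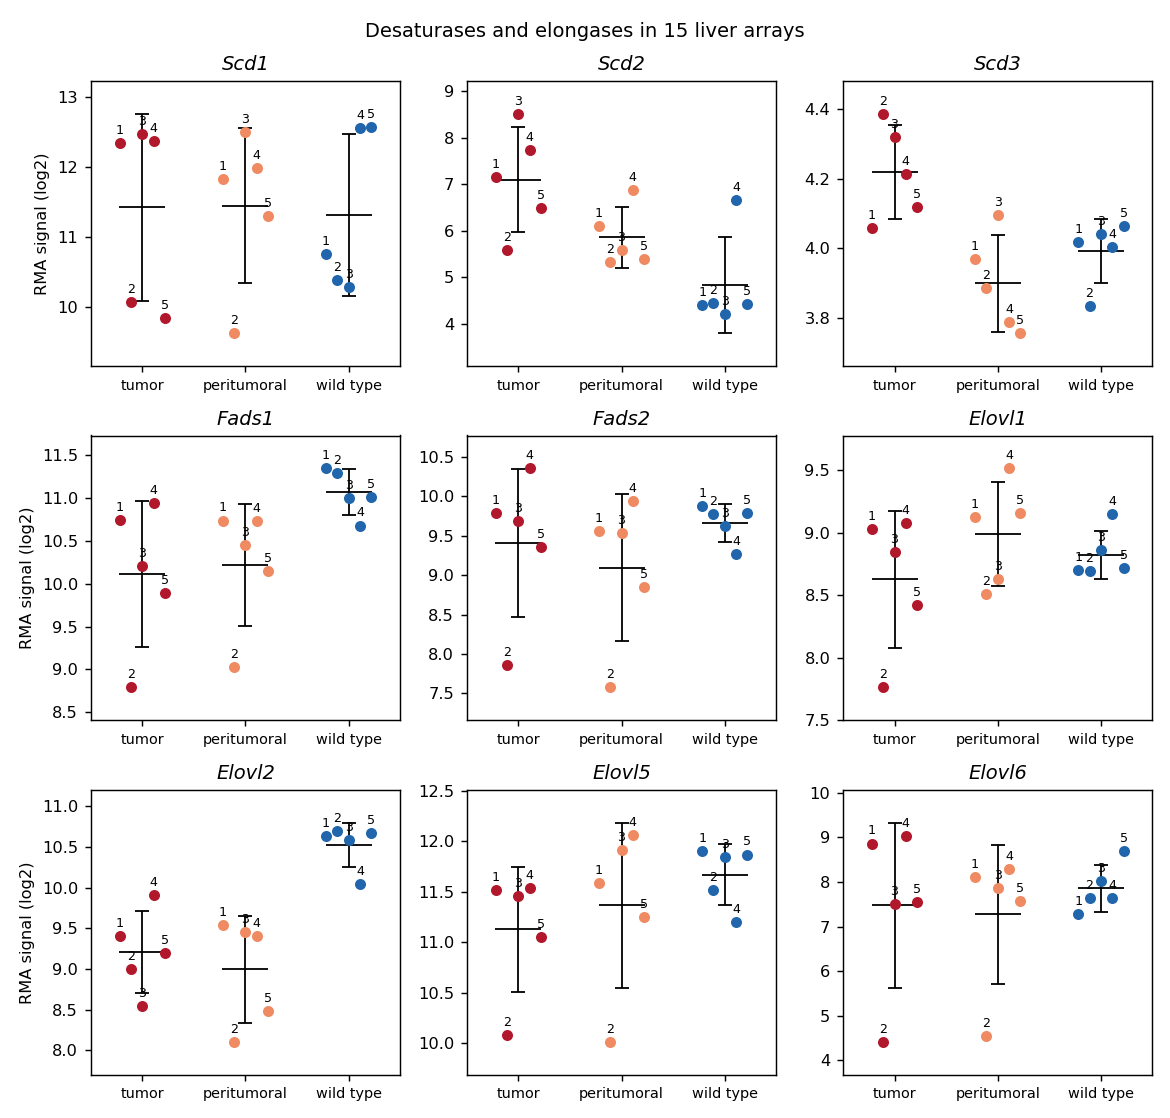
RMA signal (log2, vertical axis) of each of the 9 genes in tumors, peritumoral liver and wild type liver, 1 point per array with its replicate number; bars are the mean and SD of 5 arrays. Elovl2 is lower in all 10 KO arrays than in all 5 wild type arrays, and Elovl6 lies apart in tumor 2 (4.41) and peritumoral 2 (4.54).

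Elovl2 lengthens polyunsaturated chains of the docosahexaenoic acid route and is the elongase most closely tied to that product in liver. Its single probe set, 1416444_at, read 9.40, 9.001, 8.54, 9.90 and 9.20 in tumors 1 to 5. Peritumoral samples 1 to 5 read 9.54, 8.10, 9.45, 9.41 and 8.49, and wild type livers 1 to 5 read 10.63, 10.70, 10.58, 10.05 and 10.67. All 10 KO arrays were below all 5 wild type arrays, so neither KO group overlapped wild type liver. Of all genes, 2.84% were lower without overlap in tumors and 2.08% in peritumoral liver. The means were 9.21 ± 0.50 in tumors, 8.999 ± 0.66 in peritumoral liver and 10.52 ± 0.27 in wild type liver (SD, n = 5 each).

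Elovl2 was 2.49-fold lower in tumors than in wild type liver (log2 ratio -1.32, SE 0.23, adjusted p = 0.0468). In peritumoral liver it was 2.88-fold lower (log2 ratio -1.53, SE 0.28), and the adjusted p of 0.0787 missed the threshold. The two-sided exact permutation p was 0.00794 in both comparisons, the smallest that 5 arrays against 5 can give. Between tumors and peritumoral liver it did not pass (log2 ratio 0.21, 95% interval -0.54 to 0.96). The call in tumors lay close to the threshold and was kept in 3 of 10 fits that left out 1 array: it was lost without tumor 1, 2 or 5 (adjusted p 0.0760, 0.0534 and 0.0563) and without wild type 1, 2, 3 or 5 (0.149, 0.144, 0.136 and 0.133). Without wild type 4, whose Elovl2 signal was the lowest of its group, Elovl2 fell in both tumors (log2 ratio -1.43, adjusted p = 0.0181) and peritumoral liver (-1.65, adjusted p = 0.0335), and without peritumoral 2 it also fell in peritumoral liver (-1.30, adjusted p = 0.0414). Leaving out wild type 4 let 2.57% of all genes pass in tumors and 2.15% in peritumoral liver. With all arrays these shares were 0.565% and 0.0403%.

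The bases before the start site of Elovl2 are shown because it is the gene that passed, with those of Elovl5 and Elovl6, which did not pass. They are RefSeq's 250 bases upstream, build GRCm38.p6, 5′ to 3′ on the gene's strand. Capitals mark matches on either strand to the CCAAT box (CCAAT, or ATTGG when read on the other strand), the E-box CACGTG, the sterol regulatory element TCACNCCAC and the GC box GGGCGG.
Elovl2, chr13:41220404-41220653, minus strand: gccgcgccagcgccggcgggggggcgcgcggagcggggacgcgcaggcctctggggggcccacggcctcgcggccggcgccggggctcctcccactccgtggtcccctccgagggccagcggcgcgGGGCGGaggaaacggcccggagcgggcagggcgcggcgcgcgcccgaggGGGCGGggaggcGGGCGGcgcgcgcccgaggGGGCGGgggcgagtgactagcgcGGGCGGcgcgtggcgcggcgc
Elovl5, chr9:77917115-77917364, plus strand: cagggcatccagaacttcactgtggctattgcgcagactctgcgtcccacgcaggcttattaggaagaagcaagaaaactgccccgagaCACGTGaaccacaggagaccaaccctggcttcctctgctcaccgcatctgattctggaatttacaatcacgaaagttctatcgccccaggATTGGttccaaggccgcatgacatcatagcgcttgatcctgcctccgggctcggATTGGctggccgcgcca
Elovl6, chr3:129532136-129532385, plus strand: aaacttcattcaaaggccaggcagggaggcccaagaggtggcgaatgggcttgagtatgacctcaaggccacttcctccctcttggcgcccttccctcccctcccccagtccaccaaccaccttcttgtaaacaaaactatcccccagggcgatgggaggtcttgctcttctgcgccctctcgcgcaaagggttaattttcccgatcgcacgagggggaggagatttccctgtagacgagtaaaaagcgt

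The Elovl2 window held 5 GC boxes, at 124, 75, 63, 44 and 21 bases before the start, and 87.2% of its bases were G or C, beside a median of 52.4% over all 32851 windows. A further start site listed for Elovl2, with the window chr13:41220163-41220412, held none of these motifs. The Elovl5 window held 2 CCAAT boxes, at 71 and 17 bases before the start, and 1 E-box at 161, and the Elovl6 window held none of the 4. GC boxes were not particular to Elovl2: Elovl1, which did not pass, also held 5 in the window of 1 start site and 2 in that of another, with 1 CCAAT box in the first, and Fads2 held 1. The Scd3 window held none of the 4 motifs. The share of all windows with a match was 33.85% for the CCAAT box, 6.02% for the E-box, 1.05% for the sterol regulatory element and 32.74% for the GC box. Windows were matched for 6 of the 9 genes (Scd3, Fads2, Elovl1, Elovl2, Elovl5, Elovl6), and none of them held the sterol element, while windows for Scd1, Scd2 and Fads1 were not used here. A match describes these letters and is no evidence of binding.

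Elovl5 is the elongase that follows FADS2 in the polyunsaturated route. It read 11.52, 10.08, 11.45, 11.54 and 11.05 in tumors 1 to 5, and 11.59, 10.01, 11.92, 12.06 and 11.25 in peritumoral samples 1 to 5. In wild type livers 1 to 5 it read 11.90, 11.52, 11.85, 11.20 and 11.87. The groups overlapped, with tumor 2 and peritumoral 2 lowest in their groups. Log2 ratios against wild type liver were -0.54 in tumors (SE 0.28, adjusted p = 0.349) and -0.30 in peritumoral liver (SE 0.35, adjusted p = 0.661). The first became -0.28 without tumor 2 and the second 0.03 without peritumoral 2, and they were -0.39 and -0.08 without tumor 2, peritumoral 2 and wild type 4. Its 2 probe sets gave -0.53 and -0.55 in tumors and -0.26 and -0.34 in peritumoral liver.

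Elovl6 lengthens palmitate to stearate, so it supplies the substrate that SCD1 desaturates. It read 8.86, 4.41, 7.51, 9.04 and 7.54 in tumors 1 to 5 and 8.10, 4.54, 7.87, 8.29 and 7.57 in peritumoral samples 1 to 5. The 5 wild type livers, in order, read 7.29, 7.64, 8.03, 7.65 and 8.69. Tumor 2 and peritumoral 2 were more than 2 log2 units below every other array, on both probe sets of the gene (4.43 and 4.39 in tumor 2, 4.33 and 4.75 in peritumoral 2), while tumors 1 and 4 were above all wild type arrays. Against wild type liver, the 95% interval of the log2 ratio was -2.08 to 1.31 in tumors and -2.02 to 0.85 in peritumoral liver. Both intervals take in falls and rises, so no change was detected and its direction was not settled. Leaving out tumor 2 turned the log2 ratio of -0.39 in tumors into 0.38, and leaving out peritumoral 2 turned that of -0.58 in peritumoral liver into 0.10.

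Elovl1, which lengthens saturated and monounsaturated chains to very long ones for sphingolipids, varied least of the 4 Elovl genes, with an SD of 0.41 over the 15 arrays. It lay between 7.76 and 9.08 in tumors (median 8.85) and between 8.51 and 9.51 in peritumoral liver (median 9.13), against 8.69 to 9.15 in wild type liver (median 8.71). Its 3 probe sets gave log2 ratios of -0.24, -0.20 and -0.14 in tumors and 0.06, 0.18 and 0.26 in peritumoral liver, none past the threshold, and 2 of the 3 carry the suffix _x_at for probes that may bind other transcripts. The value for tumors, -0.20 over the gene, became 0.02 without tumor 2, and that for peritumoral liver, 0.17, became 0.29 without peritumoral 2 and 0.03 without peritumoral 4.

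**Figure D2:**
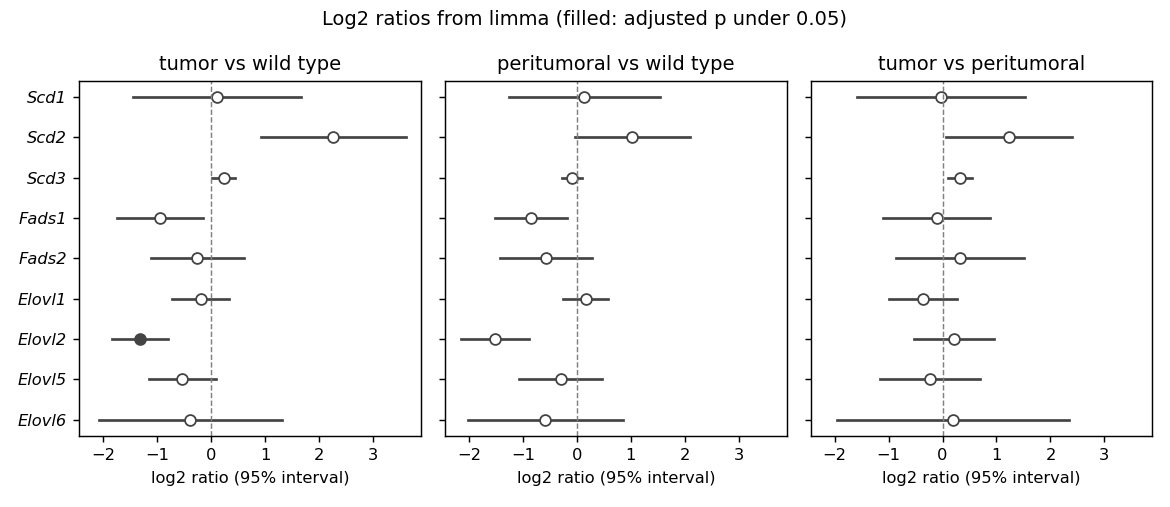
Log2 ratio from limma (horizontal axis, points) with its 95% interval (bars) for each of the 9 genes in tumors against wild type liver, peritumoral liver against wild type liver, and tumors against peritumoral liver; filled points have an adjusted p under 0.05. The only filled point is Elovl2 in tumors against wild type liver (-1.32), and the widest intervals are those of Scd1 and Elovl6.

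Scd1 is the main stearoyl-CoA desaturase of adult liver, and Scd2 is the form known from brain and from liver of newborn mice. Scd2 read 7.15, 5.58, 8.51, 7.74 and 6.49 in tumors 1 to 5 and 6.11, 5.33, 5.58, 6.88 and 5.39 in peritumoral samples 1 to 5. Wild type livers 1, 2, 3 and 5 read 4.40, 4.46, 4.22 and 4.44, whereas wild type 4 read 6.67. All KO arrays were above those 4 wild type arrays, and the groups overlapped only through wild type 4. The means were 7.09 ± 1.13 in tumors, 5.86 ± 0.65 in peritumoral liver and 4.84 ± 1.03 in wild type liver (SD, n = 5 each).

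With all arrays Scd2 did not pass: its log2 ratio was 2.26 in tumors (SE 0.61, adjusted p = 0.111, exact permutation p = 0.0238) and 1.02 in peritumoral liver (SE 0.48, adjusted p = 0.346, exact permutation p = 0.119), each against wild type liver. Without wild type 4 it rose in both, by 2.72 (adjusted p = 0.0271) and by 1.48 (adjusted p = 0.0421). In these refits 2.57% and 2.15% of all genes passed, more than with all arrays. The 3 probe sets of Scd2 gave 3.04, 1.97 and 1.76 in tumors and 1.77, 0.80 and 0.50 in peritumoral liver, so all 6 values were above 0. Wild type 4 was the highest wild type array on each of the 3 (8.10, 6.46 and 5.46). The same array held the highest signal of all 15 on all 7 granulocyte markers looked at, such as S100a8 at 12.92 against 5.63 to 10.34 elsewhere, and the log2 of their summed signal was 14.24 there, 8.01 to 10.84 in tumors, 7.76 to 11.22 in peritumoral liver and 7.91 to 8.70 in the other wild type livers. Whether these cells gave the Scd2 signal was not tested, and in whole tissue a change in the share of a cell type cannot be told apart from a change in RNA per cell.

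Tumor 3 had the highest Scd2 signal of all arrays. It also had the highest signal of Col1a1 (8.21, against 4.34 to 5.48 in the other 14 arrays) and of Epcam (7.54, against 3.92 to 5.50), markers of matrix-forming and of bile duct cells. Of the other markers measured for these cells, Col3a1, Acta2, Krt7 and Sox9 were also highest in tumor 3. Dcn, Lrat, Des and Krt19 were not, with Krt19 at 5.67 there and 6.52 in tumor 1. The log2 summed signal of the 4 measured bile duct markers was 8.59 in tumor 3, 6.42 to 7.23 in the other tumors, 6.65 to 7.09 in peritumoral liver and 6.62 to 7.06 in wild type liver. That of all 6 matrix-forming (stellate) markers was 11.89 in tumor 3, 9.48 to 10.24 in the other tumors, 11.02 to 12.09 in peritumoral liver and 10.48 to 11.48 in wild type liver. Tumor 3 was thus the highest tumor on both lists and lay within the peritumoral range on the second. The part of such cells in the Scd2 signal was not tested. Without tumor 3 the log2 ratio of Scd2 was 1.90 in tumors against wild type liver (adjusted p = 0.144) and 0.88 in tumors against peritumoral liver (adjusted p = 0.493).

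Scd1 read 12.34, 10.07, 12.48, 12.38 and 9.84 in tumors 1 to 5 and 11.83, 9.62, 12.51, 11.99 and 11.30 in peritumoral samples 1 to 5. Wild type liver gave 10.75, 10.39, 10.28, 12.56 and 12.58. Each group held arrays above 12 and arrays under 11, and the groups overlapped over nearly the whole range. Its log2 ratio was 0.11 in tumors (95% interval -1.45 to 1.67, adjusted p = 0.949) and 0.14 in peritumoral liver (-1.26 to 1.54, adjusted p = 0.924), each against wild type liver. The intervals take in a doubling and a halving alike. Without tumor 2, peritumoral 2 and wild type 4 the ratios were 0.76 (adjusted p = 0.522) and 0.91 (adjusted p = 0.224). The 2 probe sets disagreed in sign: 1415964_at gave -0.23 in tumors and -0.09 in peritumoral liver, and 1415965_at gave 0.45 and 0.37.

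Scd3, the form known from skin and its glands, gave 4.06 to 4.39 in tumors (median 4.21) and 3.76 to 4.10 in peritumoral liver (median 3.89), against 3.84 to 4.06 in wild type liver (median 4.02), close to the low end of the scale. Log2 ratios were 0.23 in tumors (SE 0.093, adjusted p = 0.246) and -0.09 in peritumoral liver (SE 0.086, adjusted p = 0.586). All 4 Scd genes of the mouse lie on chromosome 19 and are close in sequence, so probes of one may also bind another. Scd4 is named only, as no probe set used carries it.

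**Figure D3:**
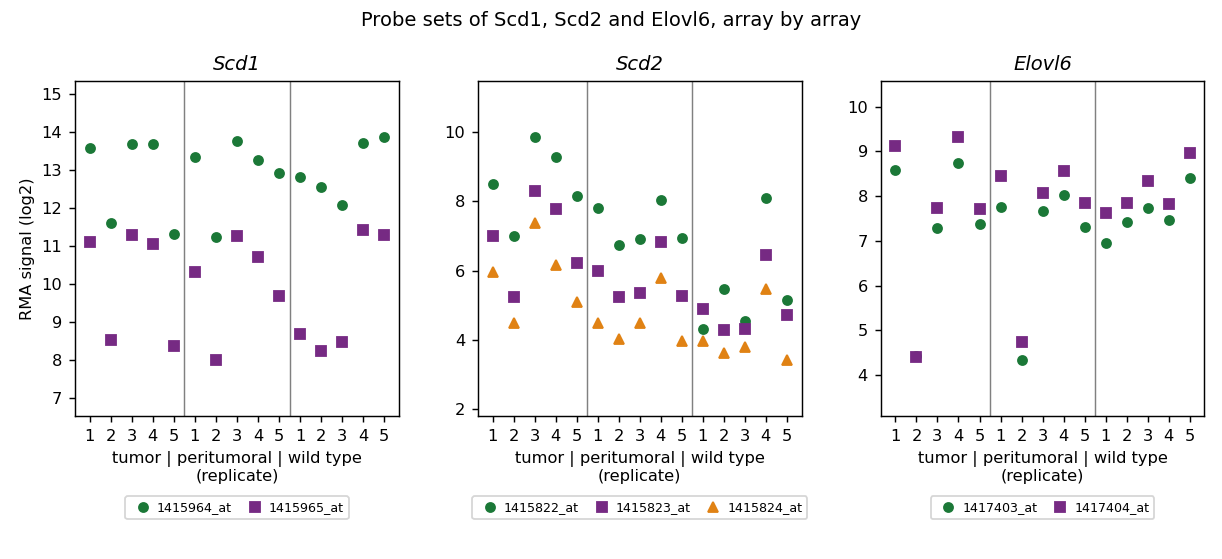
RMA signal (log2, vertical axis) of each probe set of Scd1, Scd2 and Elovl6 in tumors 1 to 5, peritumoral samples 1 to 5 and wild type livers 1 to 5, in that order from the left. Wild type 4 stands above the other wild type arrays on all 3 Scd2 probe sets, and both Elovl6 probe sets are under 5 in tumor 2 and peritumoral 2.

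Fads1 and Fads2, neighbours on chromosome 19, are the front-end desaturases that place further double bonds towards the carboxyl end of polyunsaturated chains, FADS2 at the first step and FADS1 after an elongation. Fads1 read 10.75, 8.79, 10.20, 10.94 and 9.89 in tumors 1 to 5 and 10.74, 9.03, 10.45, 10.74 and 10.15 in peritumoral samples 1 to 5. Wild type livers 1 to 5 read 11.35, 11.29, 11.01, 10.68 and 11.01. Of the 5 arrays of each KO group, 3 were below all wild type arrays and none was above all of them. The log2 ratio was -0.95 in tumors (SE 0.36, adjusted p = 0.218, exact permutation p = 0.0397) and -0.85 in peritumoral liver (SE 0.30, adjusted p = 0.257, exact permutation p = 0.0238), each against wild type liver. The ratio was -0.62 in tumors without tumor 2 and -0.55 in peritumoral liver without peritumoral 2. Without tumor 2, peritumoral 2 and wild type 4 together, Fads1 fell by 0.64 in peritumoral liver (adjusted p = 0.0347), and in tumors its log2 ratio was -0.72 (adjusted p = 0.113). Of all genes, 7.73% passed in peritumoral liver and 4.59% in tumors in these refits.

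Fads2 read 9.79, 7.86, 9.68, 10.36 and 9.36 in tumors 1 to 5 and 9.56, 7.57, 9.54, 9.94 and 8.86 in peritumoral samples 1 to 5. Wild type livers 1 to 5 read 9.88, 9.77, 9.62, 9.27 and 9.79. The groups overlapped, and tumor 2 and peritumoral 2 were again the lowest arrays. Log2 ratios were -0.26 in tumors (SE 0.39, adjusted p = 0.753) and -0.57 in peritumoral liver (SE 0.38, adjusted p = 0.470). The first became 0.13 without tumor 2 and the second -0.19 without peritumoral 2, and they were 0.03 and -0.29 without tumor 2, peritumoral 2 and wild type 4. Its 2 probe sets differed in size, with -0.47 and -0.05 in tumors and -0.72 and -0.43 in peritumoral liver.

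The pattern shared by most of these genes was a low signal in the KO samples numbered 2. Tumor 2 was the lowest tumor and peritumoral 2 the lowest peritumoral sample for 6 of the 9 genes, Scd2, Fads1, Fads2, Elovl1, Elovl5 and Elovl6, and peritumoral 2 was also lowest for Scd1 and Elovl2. Of all 12393 genes, 14.5% were lowest in both of these arrays. At the other end, tumor 4 was the highest tumor for 6 of the genes (Fads1, Fads2, Elovl1, Elovl2, Elovl5 and Elovl6), a place it held for 12.2% of all genes. Mat1a was also 11.44 in peritumoral 2, the KO value nearest to wild type liver. Over the 15 arrays Fads2 correlated with Elovl6 (Pearson r = 0.92), Elovl5 (0.90) and Fads1 (0.89). Without tumor 2 and peritumoral 2 these values over 13 arrays were 0.58, 0.53 and 0.60, so much of the likeness lay in these 2 arrays. The pair Fads1 and Elovl2 kept its value, 0.80 over 15 arrays and 0.87 over 13. These correlations are descriptions, since the arrays share groups and partly pairs.

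Tumors and peritumoral liver were compared to ask what differs inside the KO liver. None of the 9 genes passed in limma, and 0.0161% of all genes did. At an unadjusted p under 0.05 there were 2, Scd2 and Scd3 (9.28% of all genes). An exact permutation test, run on the 9 genes only, gave 1, Scd3. Equal numbers of a tumor and a peritumoral sample were treated as a pair on the evidence of the arrays. With the pair as a block none of the 9 passed either, while 0.00807% of all genes did.

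Scd2, Scd3 and Fads2 were higher in the tumor than in its peritumoral partner in all 5 pairs, as were 6.42% of all genes. For Scd2 the differences in pairs 1 to 5 were 1.05, 0.25, 2.93, 0.85 and 1.09, with a mean of 1.23 (blocked SE 0.36, blocked adjusted p = 0.248). For Fads2 they were 0.23, 0.28, 0.14, 0.42 and 0.50, with a mean of 0.32 (blocked SE 0.099, blocked adjusted p = 0.273). For Scd3 they were 0.09, 0.50, 0.22, 0.42 and 0.36, on signals near the low end of the scale. These differences came mostly from 1 of its probe sets. In tumors against peritumoral liver 1450956_at gave a log2 ratio of 0.58 and 1423366_at gave 0.07. The latter was lower in the tumor in pairs 1, 2 and 3. Elovl1 was lower in the tumor in 4 of 5 pairs, with differences of -0.10, -0.74, 0.22, -0.44 and -0.74, and so was Elovl5, with -0.07, 0.07, -0.46, -0.52 and -0.20. Scd1 split, with -1.46 in pair 5 and between -0.03 and 0.52 in the other 4.

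**Figure D4:**
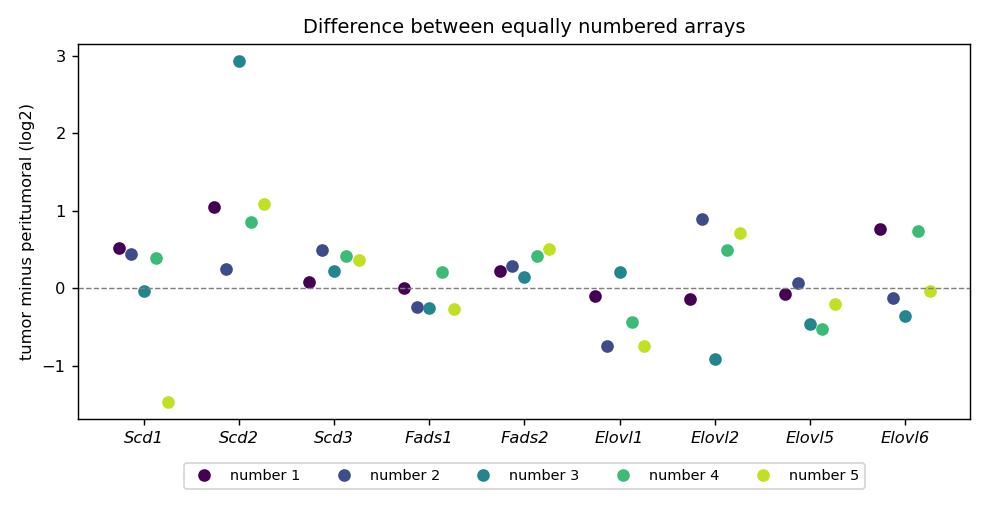
Difference in RMA signal (log2, tumor minus peritumoral, vertical axis) for each of the 9 genes, 1 point for each of the 5 equally numbered pairs. All points of Scd2, Scd3 and Fads2 are above 0, and the largest is Scd2 in pair 3 (2.93).

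Of 16 other desaturases, elongases and partners of the elongation cycle that were listed, 14 were measured, and none passed in any comparison. At an unadjusted p under 0.05 there were 6 in tumors against wild type liver, 2 in peritumoral liver against wild type liver and 4 in tumors against peritumoral liver, beside 17.4%, 15.1% and 9.28% of all genes. Elovl3, an elongase of saturated and monounsaturated chains known for its high level in male liver, had the widest range. It read 8.003, 4.48, 9.35, 6.80 and 4.50 in tumors 1 to 5 and 6.24, 4.28, 10.06, 6.28 and 5.69 in peritumoral samples 1 to 5. Wild type livers 1, 2, 3 and 5 read 12.67, 12.98, 12.47 and 12.46, while wild type 4 read 4.66, so that array decided the comparison. The log2 ratio of Elovl3 was -4.42 in tumors (adjusted p = 0.214) and -4.54 in peritumoral liver (adjusted p = 0.260), each against wild type liver. Without wild type 4 it fell by 6.02 in tumors (adjusted p = 0.0163) and by 6.13 in peritumoral liver (adjusted p = 0.0227). The shares of all genes that passed were then 2.57% and 2.15%. Xist was between 3.27 and 3.81 in all 15 arrays, and the Y-linked Eif2s3y was between 4.02 and 7.04 in tumors and between 7.46 and 8.30 in peritumoral liver, against 7.75 to 8.32 in wild type liver, with 7.82 in wild type 4. Their part in the Elovl3 values was not tested.

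Hacd2, a dehydratase of the elongation cycle, read 10.85 to 12.26 in tumors and 10.46 to 10.78 in peritumoral liver, against 10.15 to 10.74 in wild type liver. All tumors were above all other arrays, with a log2 ratio of 1.21 against wild type liver (SE 0.26, adjusted p = 0.0689). Of all genes, 2.23% were higher without overlap in tumors than in wild type liver, and 1.22% than in peritumoral liver. Without wild type 4 Hacd2 rose by 1.28 against wild type liver (adjusted p = 0.0481), a fit in which 2.57% of all genes passed. Elovl7, another elongase, read 7.25, 7.78, 5.44, 6.05 and 4.72 in tumors 1 to 5, and 4.18 to 5.08 in peritumoral liver, against 4.03 to 4.41 in wild type liver (log2 ratio in tumors 2.04, SE 0.51, adjusted p = 0.0928). In tumors against peritumoral liver the log2 ratio was 0.96 for Hacd2 (adjusted p = 0.256) and 1.82 for Elovl7 (adjusted p = 0.295). Elovl7 was highest in tumor 2, where 6 of the 9 genes were lowest among tumors. Tecr, which completes the elongation cycle, had a log2 ratio of -0.84 in peritumoral liver (SE 0.28, adjusted p = 0.232) and was the gene most like Fads1 over the 15 arrays. Leaving out tumor 2, peritumoral 2 and wild type 4 gave 3 rises (Fads3, Hacd2, Cyb5r1) and 2 falls (Elovl3, Tecr) in tumors and the same 2 falls in peritumoral liver, where 4.59% and 7.73% of all genes then passed.

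**Figure D5:**
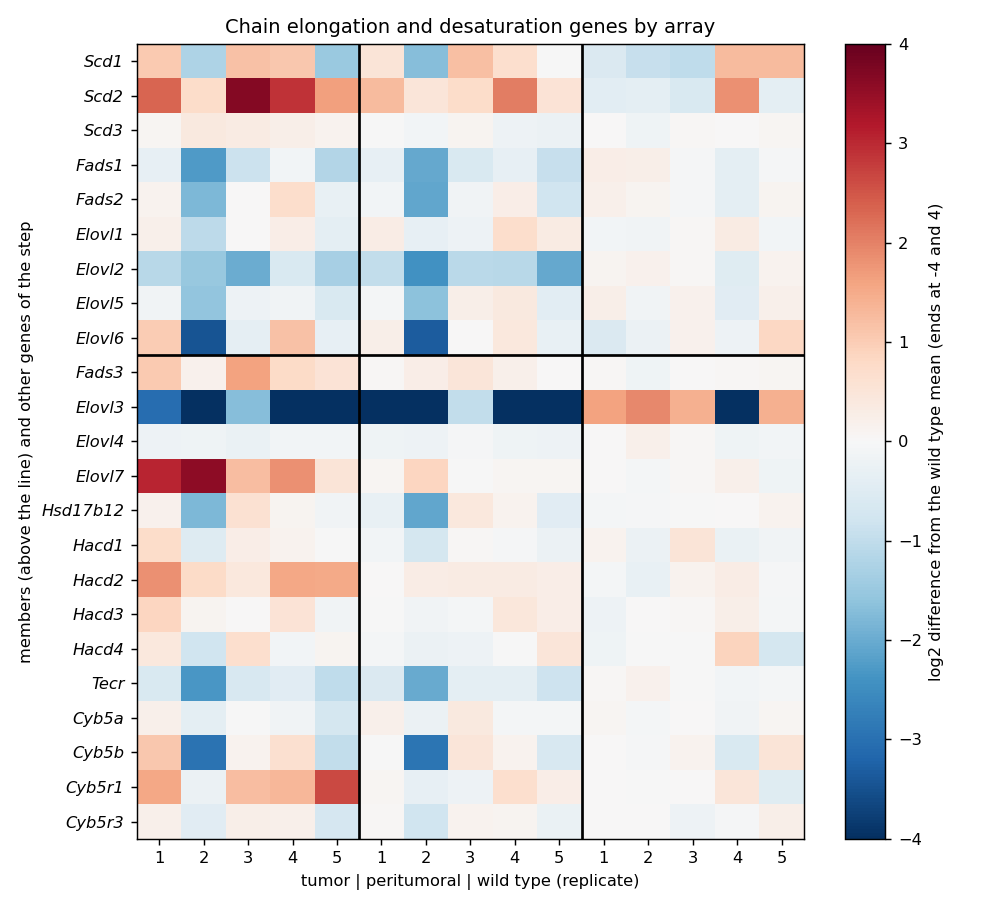
Log2 difference of each array (columns, tumors, then peritumoral samples, then wild type livers) from the wild type mean, for the 9 genes above the line and the other measured genes of chain elongation and desaturation below it; the colours end at -4 and 4. Tumor 2 and peritumoral 2 are the deepest blue columns for Elovl6, Fads1, Fads2 and Cyb5b, with shallower blue in other KO columns for Fads1, and wild type 4 is the only wild type column that is blue for Elovl3.

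Among 14 measured regulators of these genes, 1 fell in tumors against wild type liver and none passed elsewhere. It was Scap, the escort that carries SREBP proteins to the Golgi, which read 8.91, 8.30, 8.85, 8.91 and 8.30 in tumors 1 to 5 and 8.94 to 9.44 in peritumoral liver, against 9.40 to 9.72 in wild type liver. Its log2 ratio in tumors was -0.86 (SE 0.15, adjusted p = 0.0468), and all tumors lay below all other arrays. Of all genes, 2.84% were lower without overlap in tumors than in wild type liver, and 1.11% than in peritumoral liver. The call lay close to the threshold, like that of Elovl2. It was kept in 4 of 10 fits that left out 1 array and lost without tumor 1 or 4 (adjusted p 0.0625 and 0.0736) and without wild type 1, 2, 3 or 5 (0.149, 0.143, 0.127 and 0.117), while the log2 ratio stayed between -0.92 and -0.77. In peritumoral liver the ratio was -0.25 (adjusted p = 0.316), and in tumors against peritumoral liver it was -0.60 (adjusted p = 0.267). Rxra, the partner of the nuclear receptors LXR and PPAR, had a log2 ratio of -0.71 in tumors against peritumoral liver (adjusted p = 0.453). Insig2, which holds Scap back in the endoplasmic reticulum, had a log2 ratio of -0.40 in peritumoral liver (adjusted p = 0.366). The median log2 ratio of the 14 regulators in tumors against wild type liver was -0.39, beside -0.05 over all genes. At an unadjusted p under 0.05 there were 4 in tumors and 1 in peritumoral liver, each against wild type liver, and 3 in tumors against peritumoral liver. Over all genes the shares were 17.4%, 15.1% and 9.28%.

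None of 14 measured genes of fatty acid and triglyceride synthesis passed in any comparison, and 4, 1 and 2 of them had an unadjusted p under 0.05 in tumors against wild type liver, peritumoral against wild type liver and tumors against peritumoral liver. In that order 17.4%, 15.1% and 9.28% of all genes had such a p, the background for the later lists too. The smallest p in tumors belonged to Dgat1, a last-step triglyceride enzyme (log2 ratio 0.36, adjusted p = 0.171), and Acacb, which makes malonyl-CoA at mitochondria (-1.09, adjusted p = 0.196). In peritumoral against wild type liver it belonged to Acly, which makes cytosolic acetyl-CoA (-0.63, adjusted p = 0.294), and Pnpla3, a lipid droplet protein (-0.22, adjusted p = 0.339). In tumors against peritumoral liver it belonged to Dgat2, another last-step triglyceride enzyme (-0.41, adjusted p = 0.403), and Pnpla3 (0.38, adjusted p = 0.535). None of 10 measured genes of the peroxisomal step that shortens the longest polyunsaturated chains passed. There the smallest p in tumors belonged to Scp2 (-0.55, adjusted p = 0.154) and Pecr (-0.71, adjusted p = 0.236), and 3, 1 and 1 genes had an unadjusted p under 0.05 in the same order of comparisons. Acaa1a, the thiolase that ends a round of peroxisomal shortening, had a log2 ratio of 0.43 in peritumoral against wild type liver (adjusted p = 0.171) and -0.59 in tumors against peritumoral liver (adjusted p = 0.173). Next by p were Abcd3, a transporter of the peroxisomal membrane, in peritumoral against wild type liver (-0.53, adjusted p = 0.440) and Decr2, a reductase for unsaturated chains, in tumors against peritumoral liver (-0.24, adjusted p = 0.807). None of 9 measured genes of acyl-CoA activation and phospholipid remodelling passed with all arrays, and 1, 2 and 1 had an unadjusted p under 0.05. Acsl4, which activates arachidonic acid, had a log2 ratio of 1.30 in tumors against wild type liver (adjusted p = 0.105), and it rose by 1.59 without tumor 2, peritumoral 2 and wild type 4 (adjusted p = 0.0431). In that refit 4.59% of all genes passed. Chpt1, which makes phosphatidylcholine, had -0.84 in the same comparison with all arrays (adjusted p = 0.409). In peritumoral against wild type liver the smallest p belonged to the acyltransferases Agpat3 (0.29, adjusted p = 0.201) and Mboat7 (-0.23, adjusted p = 0.302). In tumors against peritumoral liver it belonged to Acsl4 (1.08, adjusted p = 0.416) and Pcyt1a, which acts early in phosphatidylcholine synthesis (-0.25, adjusted p = 0.723).

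Genes most like each member over the 15 arrays were found by Pearson correlation for the 7 members whose SD over all arrays was at least 0.5. Scd2 was closest to the keratin Krt8 (r = 0.93, and 0.94 over the 13 arrays without tumor 2 and peritumoral 2), Fkbp1a and Anxa2, and Elovl2 was closest to the retinoid receptor Rxrg (0.94 and 0.91), Pcyt2 and Sgta. Fads1 was closest to Tecr (0.97 and 0.88), Bcar3 and Adh4, and Scd1 to Vma21 (0.90 and 0.85), Acox3 and Extl2. Elovl5 was closest to Slc46a1 (0.97 and 0.87), Prxl2b and Shmt1. The likeness of the other 2 lay more in the samples numbered 2: Elovl6 was closest to Cyb5b, a cytochrome b5 (0.95 and 0.74), Akr1c20 and Fdps, and Fads2 to Pcbd1 (0.94 and 0.64), Cyb5b and Stard4. These values describe 15 arrays that share groups and partly pairs.

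Markers of fat cells, in which desaturases are abundant, were looked at in the same arrays, and 3 of 5 were measured. The log2 of their summed signal was 5.23 to 11.07 in tumors and 5.19 to 10.84 in peritumoral liver, against 5.30 to 7.95 in wild type liver. Adipoq was between 3.23 and 3.95 and Lep between 3.08 and 3.59 in all 15 arrays, close to the lowest values, while Cidea, which fatty liver also expresses, was 11.06 in tumor 3 and 10.82 in peritumoral 3, against 4.09 to 7.80 elsewhere. Scd1 was the highest of its group in both of these samples. It also read 12.34 and 12.38 in tumors 1 and 4, where Cidea was 4.09 and 4.35. In wild type 4 and 5 it read 12.56 and 12.58, with Cidea at 4.20 and 7.80. The part of fat cells in the Scd1 signal was not tested.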

How the data were processed

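RNA of 5 tumors, 5 peritumoral samples and 5 wild type livers was hybridized on Affymetrix mouse arrays of 22690 probe sets. The authors scanned them with GCOS 1.4, and the deposited values are log2 signals after RMA (background correction, normalization between arrays and summary per probe set), which pulls the arrays to 1 distribution and so hides a shift of all genes. The RMA version and genome build are not given in the sources used here. A second deposited table holds the authors' own knockout to wild type log2 ratios in 10 columns, and it was not used.

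The 64 control probe sets, 691 probe sets with several gene symbols and 1606 with none (sets that overlap in part) were left out, and the 20380 others were averaged to 12393 genes. Groups came from the sample labels. Pairs of groups were compared in limma 3.58.1 (R 4.3.3; lmFit, eBayes), each on its 2 groups alone, with Benjamini-Hochberg adjusted p-values over 12393 genes and a threshold of 0.05. Intervals are 95% and SDs are over 5 arrays. Single genes were also put to two-sided exact permutation tests. Tumors and peritumoral samples are labelled as biological replicates, and wild type livers only as replicates. Where nothing states that samples of a group came from separate animals, the p-values measure only the spread between samples. The fits were tested on simulated data. Tables were handled in Python 3.11.15 (pandas 2.3.3, numpy 2.4.6).

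The genes and lists were chosen with earlier results of these data known. All 9 genes are described. From each list and comparison the text names the genes that passed, at most 2 in each direction by size, or, with none past the threshold, the pair with the smallest p, and, for genes with an SD of at least 0.5 over the 15 arrays, the 3 genes most correlated with each. Other genes named were chosen after their values were seen. Promoter windows are RefSeq's.

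Tumors and peritumoral samples of equal replicate number were treated as pairs: deviations from the group means correlated at 0.353, 0.673, 0.271, 0.308 and 0.117 in pairs 1 to 5, all above 0.1. Of the 5 tumors, 4 correlated best with the peritumoral sample of their own number. No label states a shared animal. With wild type livers the numbers correlated between -0.223 and 0.207 and were not treated as pairs. The value of pair 5 lies within that range, so these correlations do not settle that pair. The alternatives were another choice of probe sets, all groups in 1 fit, the replicate block, recentring, renormalization, a filter on low genes, a trended prior, array weights, a test per probe set and left-out arrays.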

Additional observations from a re-analysis of the deposited data

Results flagged for a closer look

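In 27 groups of 5 arrays (9 genes in 3 groups), Dixon's test at the 95% level singled out 4 values. They were Scd2 in wild type 4 (6.67), Elovl2 in wild type 4 (10.05), Scd3 in wild type 2 (3.84) and Elovl6 in peritumoral 2 (4.54), all RMA signals on the log2 scale, and chance alone would single out about 5% of such groups. The first is above and the other 3 are below the rest of their groups.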

How the results depend on the processing

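Of the 9 genes, Elovl2 kept its direction against wild type liver under every alternative tried in both KO groups, as did Scd2, and no called value of the 9 genes turned direction. The call of Elovl2 in tumors was lost with the replicate block (adjusted p 0.163) and with a trended prior (0.0544). Counts of calls are given over all genes and then over the 9, and the cause of their moves was not tested. In tumors against wild type liver they were 70 and 1, and became 287 and 2 with all 3 groups in 1 fit, 44 and 0 with the trended prior, 1838 and 2 with array weights, 569 and 2 without tumor 2, peritumoral 2 and wild type 4, 1431 and 2 without these and tumor 5, 128 probe sets with a test per probe set, and 10 to 319 and 0 to 2 with 1 array left out. In peritumoral against wild type liver they were 5 and 0, and became 12 genes with all groups, 11 with the probe set of highest mean, 1082 and 2 with weights, 958 and 3 without the 3 arrays, 16 probe sets, and 4 to 267 and 0 to 2 with 1 array left out. Between tumors and peritumoral liver they were 2 and 0, and became 41 with all groups, 4 with the probe set of highest mean, 1 without the lowest 40% of genes, 673 and 1 (Scd2) with weights, 40 without the 3 arrays, 132 without these and tumor 5, 6 probe sets, and 0 to 36 and 0 with 1 array left out. Unadjusted exact permutation tests found 4, 2 and 1 of the 9 genes in the same order of comparisons, with no share over all genes, as only the 9 were tested. With the replicate block, which only the tumor and peritumoral pairing supports, the counts were 10 and 0, 0 and 0, and 1 and 0 in that order, and Scap was also lost in tumors (adjusted p 0.150), as it was with the trended prior (0.0677) and the probe set of highest mean (0.0515), refits chosen after seeing the data; the block changed no other call on the 9 genes. These log2 ratios, none of them called, turned sign. In tumors against wild type liver Scd1 was -0.23 by its brighter probe set. There Fads2, Elovl1 and Elovl6 were 0.20, 0.18 and 0.67 with weights, 0.032, 0.10 and 0.33 without the 3 arrays, and 0.18, 0.24 and 0.56 without tumor 5 as well. With 1 array left out they ranged from -0.49 to 0.13, -0.31 to 0.021 and -0.78 to 0.38, and Scd1 from -0.15 to 0.51. In peritumoral against wild type liver Scd1 was -0.093 by its brighter probe set, Scd3 was 0.00458 after renormalization and 0.033 by 1 of its probe sets, and Elovl6 was 0.033 with weights and 0.048 without the 3 arrays. With 1 array left out Scd1 ranged from -0.13 to 0.60, Elovl5 from -0.48 to 0.035 and Elovl6 from -0.84 to 0.10. Between tumors and peritumoral liver Scd1 was 0.021 after renormalization, 0.35 with weights, 0.49 without the 4 arrays and 0.080 by its dimmer probe set, and Fads1 was 0.11 with weights and 0.11 without the 4 arrays. With 1 array left out Scd1 ranged from -0.48 to 0.37, Fads1 from -0.41 to 0.22, Fads2 from -0.065 to 0.70, Elovl2 from -0.013 to 0.38, Elovl5 from -0.57 to 0.026 and Elovl6 from -0.49 to 0.96. Scd3 lay close to the lowest signals of the arrays.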
